A study of Drosophila melanogaster with 12 samples.

Results

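The cytoplasmic ribosomal protein genes of Drosophila melanogaster are described here across testes and ovaries of Tdrd5l mutant and control flies. A gene was taken as a member where its FlyBase symbol begins with RpL or RpS. Pseudogenes and RpS6 kinases were left out. The rule found 87 of the 17558 features that every count file lists, 51 for the large subunit and 36 for the small subunit. In the annotation used, 5 further gene symbols meet the rule: RpL19, RpL27A, RpL31, RpS10b and RpS12. Their gene identifiers are not among the features of the count files, so these genes were not analysed here.

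Each ribosome is built of ribosomal RNA and a fixed set of proteins, of which most are present as a single copy, and growing and dividing cells make all of them in matched amounts. In Drosophila most of these proteins come from a single gene, and losing a copy of such a gene often gives the Minute phenotype of slow development and thin bristles. A few proteins have a second gene, a paralog, and several of these paralogs, RpL22-like among them, are known for transcription in the male or female germ line. Other members with "like" in the symbol are related to yeast ribosome assembly factors: RpL24-like to yeast Rlp24, RpL7-like to yeast Rlp7 and RpLP0-like to yeast Mrt4.

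RNA-seq gene counts came from 12 libraries, 3 for each of 4 groups: mutant testis and control testis (males of 1 to 2 days), and mutant ovary and control ovary (females of 0 to 1 day). Mutants carried a Tdrd5l mutation, in a gene for a Tudor domain protein, and controls were a line that the labels call cas9 iso; all flies were raised at 25 °C. Libraries from testis were made after depletion of ribosomal RNA, those from ovary after poly(A) selection, and so tissue, sex, age and RNA selection cannot be told apart in any comparison of testis with ovary. The labels call the 3 libraries of a group biological replicates and do not describe the lesion.

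Tdrd5l, listed as CG15930, had 938, 739 and 679 counts in mutant testis replicates 1, 2 and 3, against 542, 549 and 684 counts in control testes. It had 12, 8 and 11 counts in mutant ovaries and 9, 4 and 6 in control ovaries. The counts of a whole gene do not check the genotype labels. Total gene counts ran from 1390699 to 2880119 over the testis libraries and from 772292 to 1647933 over the ovary libraries. Spermatid markers, the Mst and don juan genes of late sperm development, summed to 4559.6 to 9861 CPM (counts per 1000000 gene counts of the library) in mutant and 4263 to 5870.0 CPM in control testes, against at most 4.12 CPM in the ovary libraries. Markers of nurse cells and oocytes, all 9 with counts in at least 1 library of each group, summed to 849.7 to 1938 CPM in testis libraries. They summed to 298, 1489 and 295 CPM in mutant ovaries and to 616, 447 and 351 CPM in control ovaries, so that all ovary libraries but mutant replicate 2 lay below every testis library. Single markers went both ways. Of 7 tested between control tissues, edgeR called 4 higher and 2 lower in testis (adjusted p under 0.05), beside 49.3% and 26.5% of all features. Between mutant tissues it called 2 higher and 2 lower, beside 38.2% and 19.3%. In control testes and control ovaries exu averaged 817 and 50.2 CPM, osk 2.41 and 63.8 CPM, and grk 39.2 and 259.9 CPM. Of 11 follicle cell markers, 4 (Vm26Aa, Vm26Ab, Vm32E and psd) were at 0 in all control ovary libraries.

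Many counts in these files lie on antisense RNAs, and which strand the counts reflect is uncertain: the library kit that the labels name does not mark strand, and for the strand setting of the counting the sources used here give nothing. Of the 87 genes, 64 lie clear of exons on the other strand and 23 share some exon bases with a gene there. RpS9, a small subunit protein gene, has 50.29% of its exon bases opposite the antisense RNA asRNA:CR45874. It had 105 to 213 counts in mutant testes, 108 to 167 in control testes, 26 to 1221 in mutant ovaries and 36 to 200 in control ovaries. The antisense RNA had 3922 to 4365, 3219 to 4082, 57543 to 64122 and 51853 to 54388 counts in the same 4 groups. RpL3 and RpL37A overlap other genes over 18.47% and 19.69% of their exon bases. If strand was not used in counting, reads over the shared bases cannot be assigned to such a gene or to its partner. The share of records set aside as ambiguous between features ran from 0.0395% to 0.125% over the libraries. RpS9 and its antisense RNA had separate and widely different counts in every group. Whether the counting used strand was not tested. Some genes also share exon bases with other genes on their own strand: RpL7-like 1771 of 1793, RpL23A 421 of 1321 and RpL22 377 of 1100. How reads over such bases were counted is not given, so counts of these genes are uncertain. Features held 3.33% to 5.02% of the uniquely aligned records of testis libraries and 1.95% to 3.29% of those of ovary libraries. The counts of all 87 genes thus rest on a small share of the aligned records and are uncertain in that respect.

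The ovary libraries did not form a tight group for these genes, and this bears on every ovary value that follows. Ribosomal protein genes held 0.708%, 0.754% and 0.529% of gene counts in mutant testis replicates 1, 2 and 3, and 0.508%, 0.597% and 0.643% in control testes. They held 0.519%, 7.43% and 0.453% in mutant ovaries, and 2.34%, 0.550% and 0.770% in control ovaries. Mutant ovary replicate 2 and control ovary replicate 1 thus lay above every other library.

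**Figure D1:**
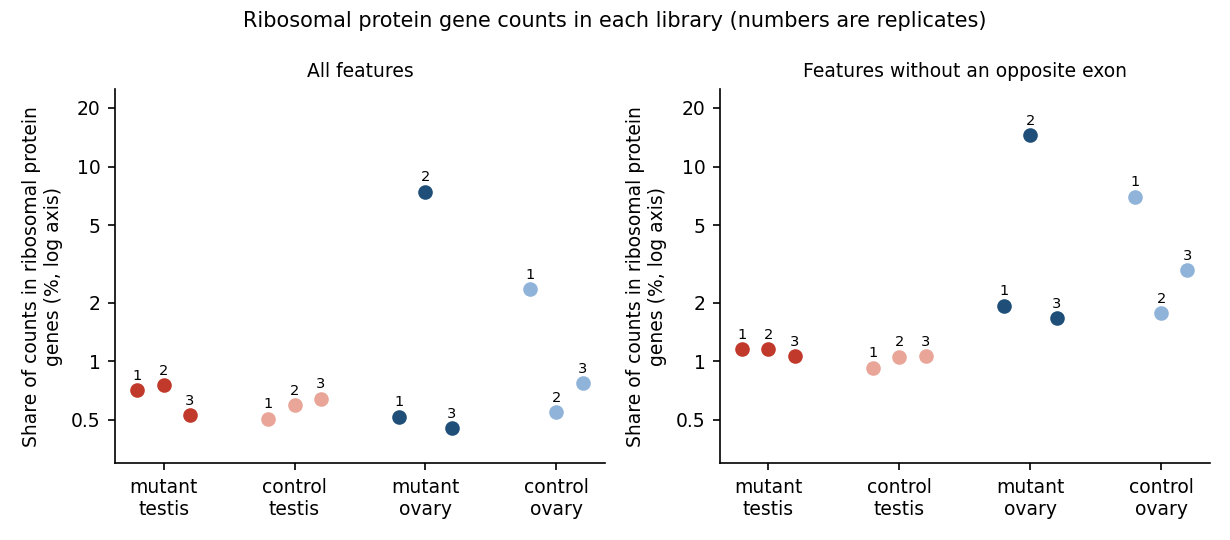
Share of counts in ribosomal protein genes in each library, over all features (left) and over features without an opposite exon (right), on a log axis; each point is a library and its number is the replicate. Mutant ovary replicate 2 (7.43% and 14.5%) and control ovary replicate 1 (2.34% on the left) lie above the other ovary libraries in both panels.

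Nearly the whole set was raised in these libraries. In mutant ovary replicate 2, all of the 75 genes with enough counts to compare had a CPM above the mean of the other 2 mutant ovary libraries, with a median ratio of 22.2 and a range of 1.83 (RpL12, a protein at the base of the stalk) to 75.8 (RpS18, of the small subunit head). In control ovary replicate 1 the median ratio over 76 genes was 4.37, from 0.967 (RpL12) to 10.3 (RpS27A, made as a fusion with ubiquitin). The median ratio over all features was 0.908 and 1.03 in the same libraries. Over protein-coding genes without an opposite exon it was 2.52 and 1.49, and over genes of ribosome assembly and RNA polymerase I it was 3.84 and 1.74. Genes of mitochondrial ribosomal proteins had medians of 1.16 and 0.923, and translation factors had medians of 11.5 and 2.72.

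**Figure D2:**
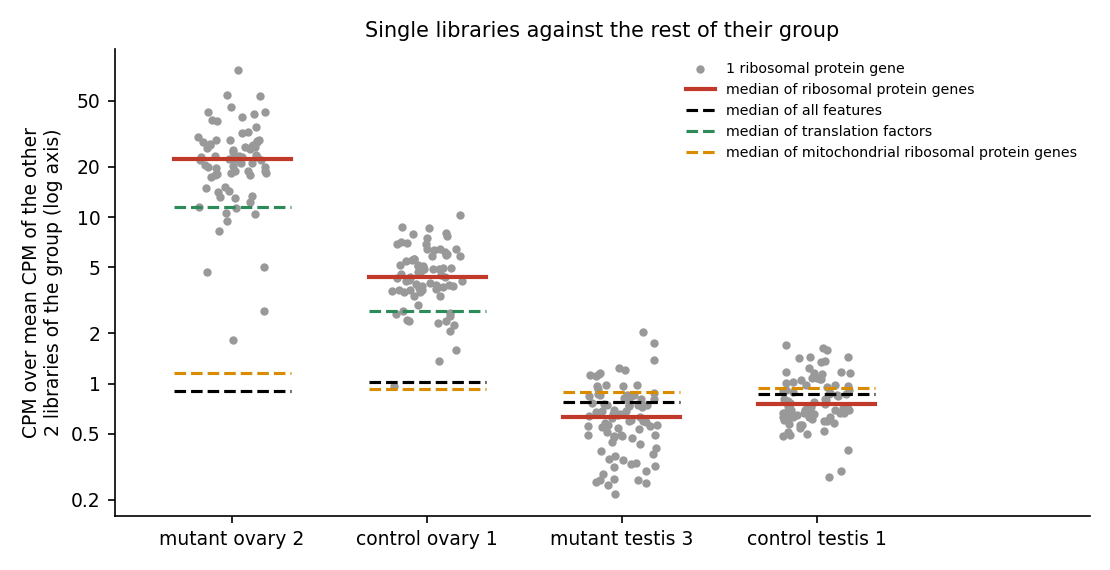
CPM of each ribosomal protein gene in a single library over the mean CPM of the other libraries of its group, on a log axis, for the 2 ovary and 2 testis libraries farthest from their groups; solid lines are medians of these genes and dashed lines medians of other gene sets. The median is 22.2 in mutant ovary replicate 2 and 4.37 in control ovary replicate 1, against 0.628 in mutant testis replicate 3 and 0.752 in control testis replicate 1.

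Other measures moved with these libraries. Features without an opposite exon held 35.8% of gene counts in mutant ovary replicate 2 and 22.3% in control ovary replicate 1, against 14.4% to 17.3% in the other ovary libraries. Summed muscle sheath markers, all 7 with counts, stood at 3651 and 2426 CPM in these libraries, against 297 to 781 CPM in the other 4. Follicle cell markers summed to 1088 CPM in mutant ovary replicate 2, with 10 of 11 genes at more than 0 counts, and to 58.3 to 127 CPM in the other ovary libraries. The share of counts without an opposite exon was used as a term in a further fit of the genotype comparisons, given with their results. The part of the marker levels in the ovary results was not tested. Counts and fold changes that use ovaries are therefore also given without mutant ovary replicate 2 or control ovary replicate 1.

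Among themselves the genes differed widely in level per kilobase of exon. In mutant testes the median gene stood at 60.6 CPM per kilobase and in control testes at 54.5 CPM per kilobase. RpLP2, an acidic protein of the ribosomal stalk, was the highest in both, at 456 ± 130 CPM per kilobase in mutant and 355 ± 82.5 in control testes (SD, n = 3 each). RpL3, a protein near the peptidyl transferase centre, stood at 304 ± 39.3 in mutant and 314 ± 19.5 in control testes. The lowest in control testes were RpL7-like, RpS3A and RpL37-1, at 1.30 ± 1.18, 5.16 ± 2.41 and 7.20 ± 1.80 CPM per kilobase. The value of RpL7-like is uncertain, since nearly all of its exon bases are shared on the same strand. The ranges of RpLP2 and RpL3 overlapped in control testes.

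In control ovaries the median gene stood at 120.2 CPM per kilobase. RpL41, the shortest ribosomal protein, was highest at 958 ± 908 CPM per kilobase (SD, n = 3), followed by RpL12 at 595 ± 13.8 and RpL27 at 517 ± 151. Of these only the value of RpL12 was alike in all 3 libraries: RpL12 had 624, 1179 and 664 CPM in mutant ovaries and 671, 686 and 703 CPM in control ovaries. At the other end RpL10Aa, RpL22-like, RpL7-like and RpS28-like were at 0 counts in all 6 ovary libraries. The median spread of a gene between replicates (SD as a share of the mean) was 30.8% in mutant and 25.1% in control testes, 152% in mutant and 92.3% in control ovaries, and 19.9% and 28.0% in the ovary groups once mutant ovary replicate 2 and control ovary replicate 1 were left out.

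In most pairs the counted shares of the paralogs differed between testis and ovary libraries, which also differed in RNA selection. For each of 12 pairs the share of the first-named paralog in the count per kilobase of its pair was computed in every library, a ratio that does not depend on the depth of the library. The shares of 9 pairs differed between the tissues at an adjusted p under 0.05 (exact two-sided permutation test with tissue labels permuted within genotype, Benjamini-Hochberg over the 12 pairs), and 7 of these did not overlap between the 6 testis and the 6 ovary libraries. The smallest p that this test can give is 0.005, or 0.00857 after adjustment, and those 7 pairs had it. RpL37-2 with RpL37-1, counted among the 12, the 9 and the 7, was added after the values were seen. The p of this pair is therefore a description only, and its inclusion also enters the adjusted p of the other pairs. RpL7-like, among the 9, had only 9 counts over the mutant and 11 over the control testes. Pairs with RpL24-like, RpL7-like or RpLP0-like set a relative of an assembly factor beside a ribosomal protein gene. In bulk tissue, fewer cells of a type and less RNA per cell cannot be told apart.

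Some paralogs had counts in testes and few or none in ovaries. RpL10Aa (FBgn0038281, 3R 15037366 to 15038149, plus strand, BDGP6) encodes a protein of the L1 stalk, as does its paralog RpL10Ab. It had 210.1, 202 and 73.1 CPM in mutant testes, 45.3, 108 and 118 CPM in control testes, and 0 counts in the 6 ovary libraries. It made up 87.4%, 82.7% and 80.3% of its pair in mutant testes and 51.7%, 83.6% and 79.6% in control testes. Set against a floor of 3 counts over the ovary group, its level in testis was at least 204-fold higher in mutants and at least 82.7-fold higher in controls. RpL10Ab was counted in every ovary library, with 16 to 1445 counts, so that a share of up to 18.75% could have gone undetected in the shallowest of them.

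RpL22-like (FBgn0034837, 2R 23246610 to 23247893, minus strand) is the second gene for the large subunit protein L22. It had 40.6, 40.8 and 10.4 CPM in mutant testes, 28.0, 21.3 and 34.6 CPM in control testes, and 0 counts in the 6 ovary libraries. RpL22 itself had 43.7, 65.3 and 43.9 CPM in mutant testes and 47.5, 31.9 and 33.7 CPM in control testes, so both genes were counted in testes. In ovaries RpL22 stood at 256, 1198 and 219 CPM in mutants and 731, 234 and 378 CPM in controls. RpL22-like held 17.4% to 47.8% of the pair in testis libraries, a share that is uncertain in so far as RpL22 shares exon bases on its own strand. The level of RpL22-like was at least 39.2-fold higher in mutant testes than in mutant ovaries and at least 24.6-fold higher in control testes than in control ovaries, against a floor of 3 counts over the ovary group.

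RpL37-2, paired with RpL37-1 for the large subunit protein L37, had 7.29, 5.83 and 4.87 CPM in mutant testes and 5.75, 4.73 and 9.87 CPM in control testes. In ovaries it had 2 counts in control replicate 1 and 0 in the other 5 libraries. Its share averaged 62.1% ± 9.95 in testes and 0.575% ± 1.41 in ovaries (SD, n = 6 each). The ratio of control testis to control ovary was 9.24, with a 95% counting interval of 2.39 to 79.1. This pair does not end in a and b and was added after the values were seen. RpL7-like, with 9 counts over the mutant testes, 11 over the control testes and 0 in ovaries, held 1.41% ± 1.35 of its pair in testes (SD, n = 6, exact two-sided permutation test, adjusted p = 0.0267), and its adjusted p was 0.0933 without both high ovary libraries and 0.078 to 0.133 without any single ovary library. Nearly all exon bases of RpL7-like are shared on the same strand, so its share is uncertain.

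In other pairs both paralogs were counted in both tissues, and their balance differed. RpS19a and RpS19b encode eS19, a protein of the small subunit head. RpS19b (FBgn0039129, 3R 23932729 to 23933530, minus strand) had 47.2, 42.7 and 37.2 CPM in mutant testes and 28.8, 37.2 and 53.8 CPM in control testes. In ovaries it had 3.30, 3.64 and 2.19 CPM in mutants and 4.12, 1.19 and 6.47 CPM in controls. RpS19a thus held 22.9% ± 6.83 of the pair in testes and 85.1% ± 11.8 in ovaries (SD, n = 6 each), and 79.2% ± 9.37 in ovaries without the 2 high libraries (n = 4). The level of RpS19b itself was alike in the high ovary libraries and the others, while RpS19a stood at 671 CPM in mutant ovary replicate 2 against 15.4 and 26.3 CPM in the other mutant ovary libraries.

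RpS15Aa, the first of the pair for the small subunit protein uS8, held 40.6% ± 13.8 in testes and 75.7% ± 12.3 in ovaries (SD, n = 6 each). RpS5a and RpS5b encode uS7 of the small subunit head, and RpS5b is known for a role in oogenesis. RpS5a held 59.8% ± 4.97 in testes and 37.1% ± 8.05 in ovaries, so that RpS5b had the larger share per kilobase in ovaries. That share depends on annotated exon lengths, 1386 bases for RpS5a and 951 for RpS5b. By counts RpS5a had 32, 843 and 10 in mutant ovaries and 135, 14 and 24 in control ovaries. RpS5b had 29, 843 and 22 counts in mutant ovaries and 108, 18 and 32 in control ovaries. RpS5a also carries 14 annotated snoRNAs in its introns, the most of any of the 87 genes. RpL34a held 35.5% ± 12.4 in testes and 13.4% ± 5.99 in ovaries. None of these 3 pairs overlapped between the tissues, and none did without both high ovary libraries, when the adjusted p of each was 0.0171 in the same exact permutation test over fewer libraries.

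The remaining pairs overlapped. RpS28a held 31.3% ± 19.5 of its pair in testes and 4.35% ± 4.86 in ovaries (SD, n = 6 each; exact permutation test, adjusted p = 0.015), on 41 counts over the testes and 6 over the ovaries, and its adjusted p was 0.075 without both high ovary libraries. RpL24-like held 28.5% ± 11.6 in testes and 18.3% ± 2.00 in ovaries (n = 6 each; exact permutation test, adjusted p = 0.078). RpS14a held 61.9% ± 10.1 and 71.5% ± 20.2 (n = 6 each; exact permutation test, adjusted p = 0.355), with RpS14b next to it on the X chromosome. RpLP0-like held 24.2% ± 7.46 and 24.4% ± 14.7 (n = 6 each; exact permutation test, adjusted p = 0.985). Reads that aligned to several places were not counted to genes, so shares of pairs that are near-identical in sequence are uncertain.

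**Figure D3:**
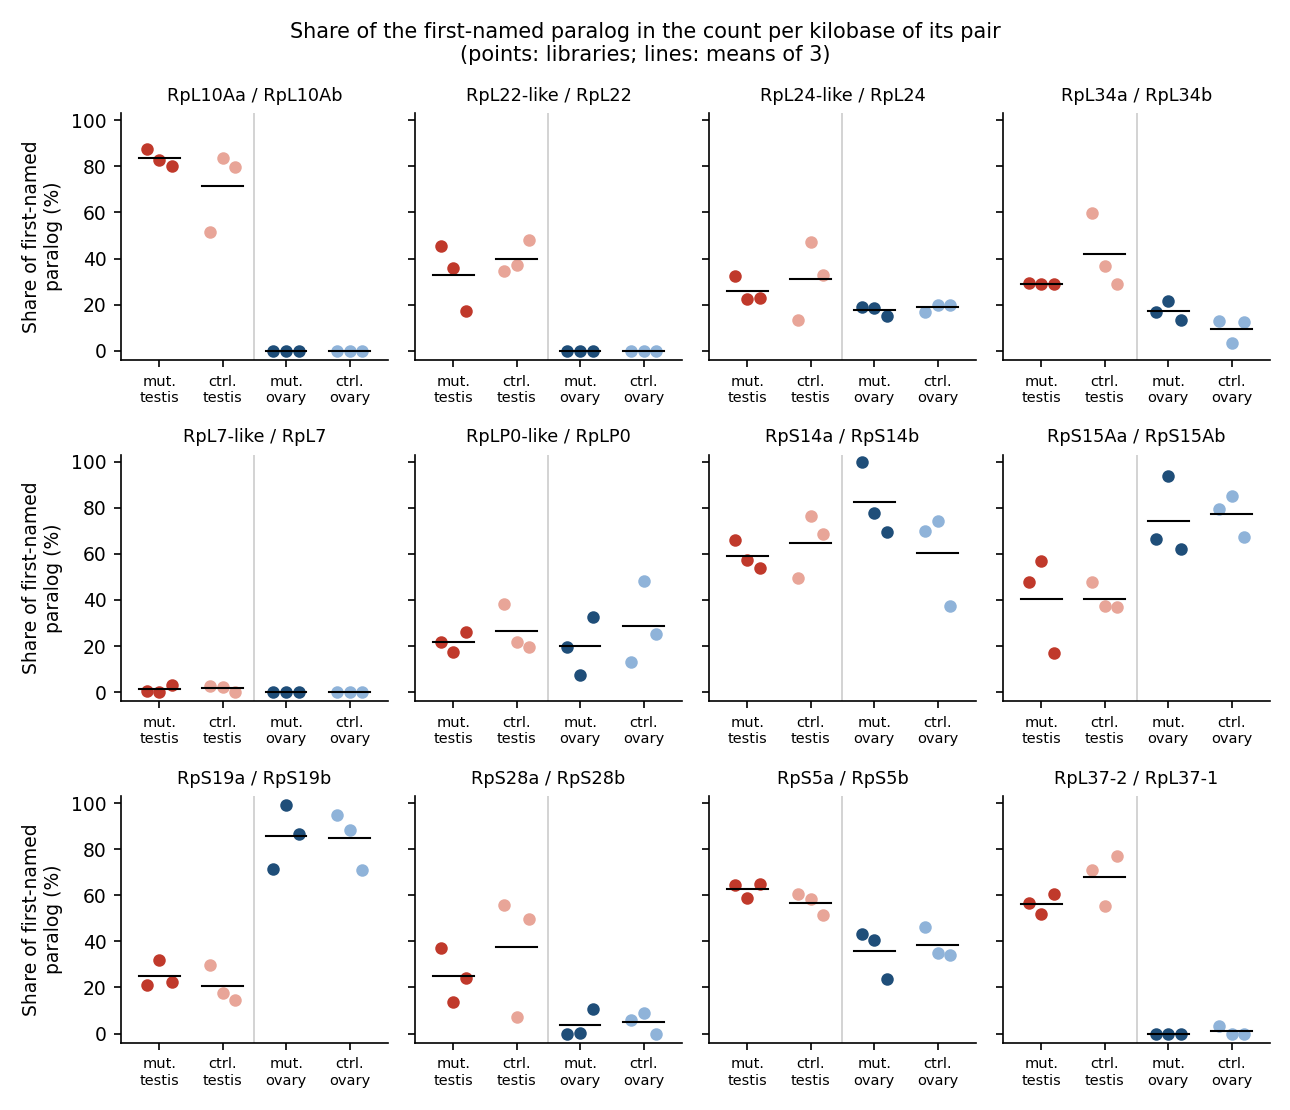
Share of the first-named paralog in the count per kilobase of its pair (%), for 12 pairs; points are libraries, lines are means of 3, and testis groups stand left of ovary groups. RpL10Aa, RpL22-like and RpL37-2 lie at or near 0% in ovaries, and RpS19a averages 22.9% in testes against 85.1% in ovaries.

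Shares hardly separated the genotypes. Of 24 comparisons of mutant with control, 1 did not overlap: RpL34a held 16.6%, 21.7% and 13.3% of its pair in mutant ovaries, against 13.0%, 3.46% and 12.4% in control ovaries. Its exact two-sided permutation p was 0.1, the smallest that 3 against 3 libraries can give, and its adjusted p over the 24 comparisons was 1. Leaving out single libraries gave between 1 and 5 comparisons without overlap.

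Between control testes and control ovaries most members with a difference were lower in testis. Of 83 genes that passed the filter on low counts, edgeR called 7 higher and 38 lower in testis at an adjusted p under 0.05. Of all 8427 features tested, 49.3% were called higher and 26.5% lower. The median log2 fold change was -1.18 over the ribosomal protein genes and 1.04 over all features. Between mutant testes and mutant ovaries, which share no library with the first comparison, 4 genes were called higher and 39 lower of 83, with 38.2% of all features called higher and 19.3% lower; 57.5% were called in either direction and the medians were -1.96 and 0.83. Without control ovary replicate 1 the first comparison gave 19 higher and 28 lower, with a median of -0.20, and without mutant ovary replicate 2 the second gave 23 higher and 22 lower, with a median of 0.27. RpL37-2, RpL7-like, RpS28-like and RpS28a did not pass the filter in either.

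The genes called higher in testis in both genotypes were RpL10Aa, RpL22-like, RpS10a and RpS19b. None of them passed the filter in the ovary comparison, so they entered the tissue comparisons through the testis libraries, where they are high, and their calls are given as a description. RpS10a (FBgn0027494, 3R 27652760 to 27653363, plus strand), a gene for small subunit protein S10, had 37.8, 41.6 and 26.2 CPM in mutant testes and 16.5, 16.5 and 24.2 CPM in control testes. In ovaries it had 4 counts over the mutant and 3 over the control libraries, all of them in mutant ovary replicate 2 and control ovary replicate 1. The ratio of control testis to control ovary was 17.0, with a 95% counting interval of 5.67 to 83.9. RpS10b is among the genes not analysed, so no pair share could be given for RpS10a.

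RpL3, RpL37A and RpS15Ab were called higher in control testes but not in mutant testes with all libraries. Without mutant ovary replicate 2 and control ovary replicate 1 they were called higher in both, at log2 fold changes of 2.41, 4.14 and 1.80 between the mutant tissues and 2.50, 2.72 and 1.77 between the control tissues. RpL37A had 237, 241 and 272 CPM in mutant testes and 227, 238 and 231 CPM in control testes, against 8.80 to 457 CPM in mutant ovaries (8, 753 and 11 counts in replicates 1, 2 and 3) and 106, 27.3 and 29.8 CPM in control ovaries. Only mutant ovary replicate 2 lay above the testis libraries. The log2 fold change of RpL37A in controls was 1.99 (SE 0.40, edgeR adjusted p = 0.000277). RpS15Ab had 1.43 (SE 0.45, adjusted p = 0.00815) and RpL3 had 1.47 (SE 0.54, adjusted p = 0.0322) there, and RpL3 missed the threshold without control testis replicate 2 (adjusted p = 0.110) or control ovary replicate 3 (adjusted p = 0.0545).

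Genes called lower in testis in both genotypes numbered 33, which is 86.8% of those called in controls and 84.6% of those called in mutants. Of all features, 26.5% were called lower between control tissues and 19.3% between mutant tissues. The share of all features called lower in both was not computed, so whether such overlap is particular to these genes was not tested. Of the 33 genes, 10 were also called in every fit that left out a library: RpL12, RpL22, RpL23A, RpL27, RpL29, RpL34b, RpL4, RpL7A, RpS24 and RpS3A. RpL12 (FBgn0034968, 2R 24060378 to 24061860, plus strand) had 70.1, 67.8 and 67.6 CPM in mutant testes and 73.3, 65.0 and 61.9 CPM in control testes, against 624 CPM or more in each ovary library. Its log2 fold change was -3.67 (SE 0.61, edgeR adjusted p = 7.05e-05) between the mutant tissues and -3.50 (SE 0.25, adjusted p = 2.70e-09) between the control tissues. Testis and ovary libraries lay far apart for this gene, and its replicates lay close together in all groups but the mutant ovaries. The fold change was -3.68 between the mutant tissues without mutant ovary replicate 2, and without control ovary replicate 1 it was -3.68 between the control tissues.

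RpL23A, a protein at the exit of the peptide tunnel, showed the largest fall in both comparisons. It had 20.5, 19.7 and 7.92 CPM in mutant testes and 12.9, 9.46 and 15.7 CPM in control testes. In ovaries it had 213, 2585 and 177 CPM in mutants and 1092, 215 and 348 CPM in controls, so every ovary library lay above every testis library. The log2 fold change was -5.69 (SE 0.91, edgeR adjusted p = 5.94e-05) between the mutant tissues and -5.50 (SE 0.56, adjusted p = 2.08e-06) between the control tissues, and -4.06 and -4.75 without the high library of each. RpS3A, a small subunit gene on chromosome 4 (65225 to 67207, minus strand), had 7.99, 14.6 and 2.44 CPM in mutant testes and 5.75, 10.6 and 4.49 CPM in control testes. It had 49.5, 1248 and 42.7 CPM in mutant ovaries and 194, 59.4 and 107 CPM in control ovaries, and again the tissues did not overlap. Its log2 fold changes were -5.44 between the mutant and -4.23 between the control tissues, and -2.92 and -3.88 without the high library of each.

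RpL4, a protein that lines the peptide tunnel, fell by 5.21 between the mutant tissues and by 4.46 between the control tissues on the log2 scale (edgeR adjusted p = 0.000292 and 0.000114). RpL29 had log2 fold changes of -4.13 and -4.56, RpL34b of -3.87 and -3.92, RpL22 of -3.35 and -3.67, RpL7A of -5.24 and -3.48, RpS24 of -4.47 and -3.26 and RpL27 of -3.31 and -2.37 in the mutant and the control comparison. The mutant comparison without mutant ovary replicate 2 gave smaller falls: -2.90 for RpL4, -2.49 for RpL29, -2.75 for RpL34b, -2.69 for RpL22, -2.64 for RpL7A, -2.37 for RpS24 and -3.10 for RpL27. The control comparison without control ovary replicate 1 gave -3.46, -3.62, -3.46, -3.32, -2.32, -2.25 and -2.28 for the same genes, and all were still called. RpL13 (-4.10 and -4.21) and RpS13 (-4.21 and -2.67) were called in both with all libraries, and both lost the call in the mutant comparison without mutant testis replicate 3 (adjusted p = 0.0543 and 0.0850). That fit called 10 of the 83 genes lower, and 13.1% of all features.

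**Figure D4:**
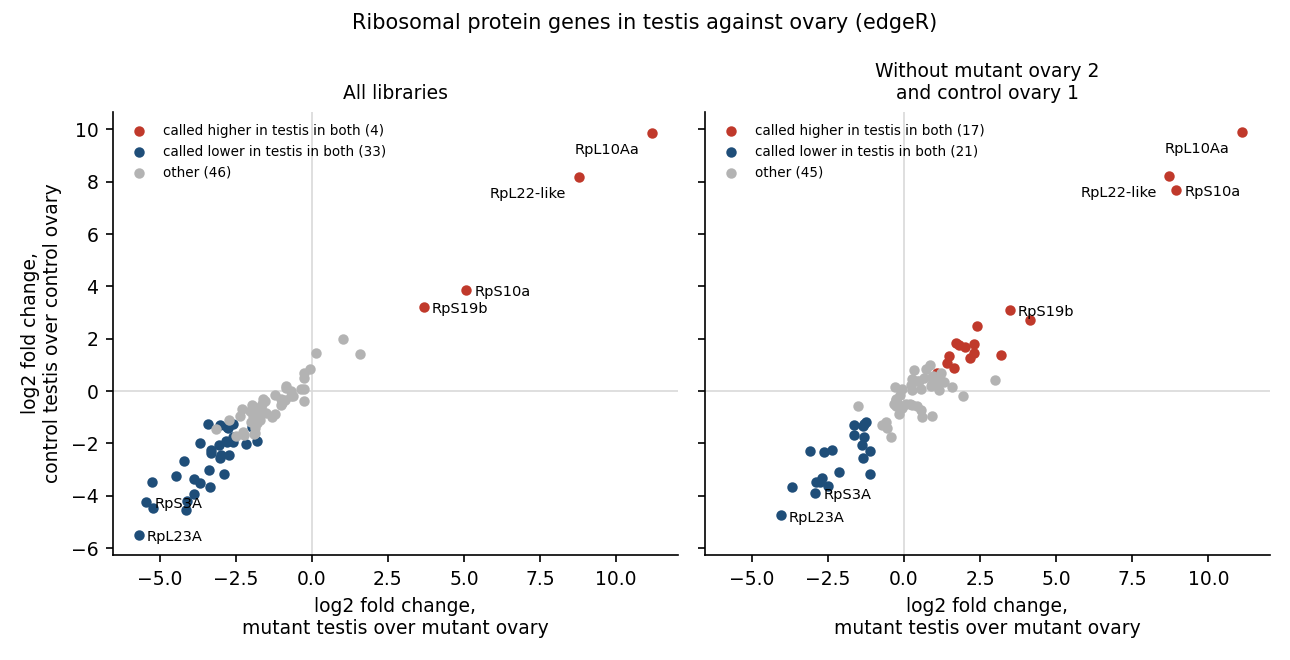
log2 fold change of testis over ovary for each ribosomal protein gene, in mutants (horizontal axis) and controls (vertical axis), with all libraries (left) and without mutant ovary replicate 2 and control ovary replicate 1 (right). With all libraries 4 genes were called higher and 33 lower in both comparisons, and without those libraries 17 and 21; fitted fold changes of RpL10Aa, RpL22-like and RpS10a rest on 0 to 4 ovary counts and give no size.

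Without mutant ovary replicate 2 and control ovary replicate 1, 17 genes were called higher in testis in both genotypes (89.5% of those called in controls and 73.9% in mutants) and 21 lower (75% and 95.5%). The 17 contain the 4 named above, and all 21 had been called lower in both with all libraries. RpLP2, among the 17, had log2 fold changes of 1.71 (SE 0.49, edgeR adjusted p = 0.000904) between the mutant tissues and 1.83 (SE 0.31, adjusted p = 6.81e-06) between the control tissues in these fits. Ribosomal protein genes were thus split, some higher and some lower in testis, and how many fell on each side depended on those libraries. In these fits, 52.7% of all features were called higher and 22.1% lower between the mutant tissues, and 50.7% higher and 24.5% lower between the control tissues. The shares of all features called the same way in both genotypes were not computed.

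A count that uses no model showed the same dependence on one side only. In 6 genes (RpL10Aa, RpL22-like, RpL37-2, RpS10a, RpS15Ab and RpS19b) every testis library had a higher CPM than every ovary library, and in 19 genes every testis library was lower. Over features with at least 10 counts the shares were 31.4% higher and 13.1% lower. Without the 2 high ovary libraries 26 genes lay above and 19 below, against 42.8% and 14.6% of all such features. The large subunit had 28 of 49 tested genes called lower between the mutant tissues and 27 of 49 between the control tissues, and the small subunit had 11 of 34 in each. Genes without an opposite exon had 28 and 26 of 60 called lower, and genes with one had 11 and 12 of 23. Called higher were 2 and 4 of the large subunit, 2 and 3 of the small subunit, 4 and 5 without an opposite exon and 0 and 2 with one. Of all features, edgeR called 19.3% and 26.5% lower and 38.2% and 49.3% higher in the mutant and control comparison. Without the high ovary library of each comparison the counts called lower were 16 and 21 of 49 for the large subunit, 6 and 7 of 34 for the small subunit, 14 and 17 of 60 without an opposite exon and 8 and 11 of 23 with one. Called higher were then 9 and 8, 14 and 11, 18 and 16, and 5 and 3 of the same classes. Of all features, 22.1% and 24.5% were then called lower and 52.7% and 50.7% higher.

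The mutation was compared with the control within each tissue. In testes, edgeR called 0 of 84 tested ribosomal protein genes, where 0.942% of all 9768 features were called (0.317% higher and 0.624% lower); DESeq2 called 0 as well, and 3 members had an unadjusted p under 0.05, against 712 of all features. The median log2 fold change was 0.18 over the members and 0.03 over all features, with 64 of 84 members above 0. RpL7-like, RpS28-like and RpS28a did not pass the filter. After TMM scaling, groups did not overlap in 9 members that were higher and 2 that were lower in mutant testes, 10.7% and 2.38% of those tested, against 5.67% and 6.12% of all features.

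Among the smallest p-values in testes were those of RpS10a and RpL10Aa. RpS10a had a log2 fold change of 0.86 (SE 0.37, edgeR adjusted p = 0.548), without overlap, and RpL10Aa had 0.81 (SE 0.36, adjusted p = 0.585), with overlap. Without mutant testis replicate 3, which had the lowest RpL10Aa level of its group, RpL10Aa was called higher (1.08, adjusted p = 0.00769), in a fit that called 2.7% of all features higher.

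Library make-up differed within the testis groups as well. Features without an opposite exon held 41.2%, 45.0% and 28.9% of counts in mutant testis replicates 1, 2 and 3 and 31.5%, 35.7% and 39.0% in control testes. Spermatid markers summed to 8782, 9861 and 4560 CPM in mutant and 4263, 4899 and 5870.0 CPM in control testes, and all 9 had a fold change above 0, with a median of 0.62; their part in the members' shift was not tested. Accessory gland markers, from an organ next to the testis, summed to 92.0 to 358 CPM in mutant and 67.6 to 229 CPM in control testes, and all 6 had counts in both groups. With the share of counts without an opposite exon as a term, 1 member was called higher, against 0.87% of all features called higher and 1.78% in either direction; the median of the members was 0.05 and that of all features -0.02.

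In ovaries, edgeR called 0 of 78 tested ribosomal protein genes and 0% of the 4683 features; DESeq2 called 14 features and 0 members, and 0 members had an unadjusted p under 0.05 in edgeR, against 184 of all features. The median log2 fold change was 1.42 over the members, with all 78 above 0, and 0.14 over all features. After TMM scaling RpL12 was the only member whose groups did not overlap, where 4.31% of all features were higher and 5.66% lower without overlap; its CPM values above, which are not scaled in that way, do overlap. With the share of counts without an opposite exon as a term, 0 members were called, against 0.918% of all features called higher and 0.876% lower, and the median of the members was -0.15. Without mutant ovary replicate 2 the median was -1.30, with 2 of 78 above 0. Without control ovary replicate 1 as well it was -0.29, with 21 of 77 above 0. A direction for these genes as a group in mutant ovaries therefore cannot be given.

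**Figure D5:**
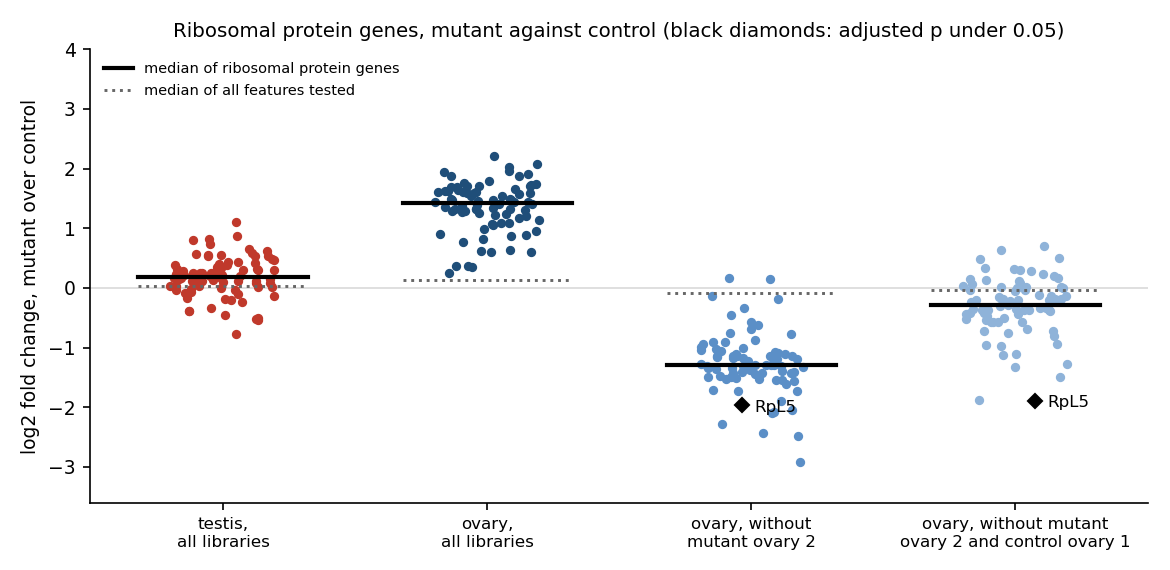
log2 fold change of mutant over control for each ribosomal protein gene, in testes and, with and without the libraries that stand apart, in ovaries; solid lines are medians of these genes, dotted lines medians of all features tested, and diamonds are genes with an adjusted p under 0.05. The ovary median is 1.42 with all libraries, -1.30 without mutant ovary replicate 2 and -0.29 without control ovary replicate 1 as well.

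RpL30, RpL38 and RpS3A had the smallest p-values in ovaries. RpL38 had 8.80, 456 and 13.1 CPM in mutant ovaries and 67.0, 8.32 and 27.2 CPM in control ovaries. Its log2 fold change was 2.20 (SE 1.45, edgeR adjusted p = 0.999), and -1.34 without mutant ovary replicate 2. RpL30 had 1.79 (SE 1.06, adjusted p = 0.999) and RpS3A had 1.87 (SE 1.24, adjusted p = 0.999). All 3 differences were smaller than the spread between the mutant libraries.

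RpL5, which binds the 5S ribosomal RNA together with RpL11, was the only member called in a fit without mutant ovary replicate 2, and is named after its values were seen. RpL5 (FBgn0064225, 2L 22532279 to 22536884, minus strand) had 61.6, 1166 and 94.2 CPM in mutant ovaries and 446, 278 and 373 CPM in control ovaries. Mutant replicates 1 and 3 lay below all control libraries and mutant replicate 2 above them. With all libraries its log2 fold change was 0.25 (SE 0.97, edgeR adjusted p = 0.999). Without mutant ovary replicate 2 it fell by 1.97 (SE 0.27, adjusted p = 0.0046), where 0.456% of all features were called lower, 0.684% higher and 1.14% in either direction. Without both high libraries it fell by 1.89 (SE 0.25, adjusted p = 0.0013), where 1.43% were called lower, 1.52% higher and 2.95% in either direction. In testes RpL5 had 62.2, 55.1 and 31.7 CPM in mutants and 30.2, 36.6 and 64.6 CPM in controls, with a log2 fold change of 0.17 (SE 0.35, adjusted p = 0.964).

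Whether the effect of the mutation differed between tissues was tested as an interaction in all 12 libraries. edgeR called 0 of 83 members, and 0.0291% of 10321 features (0.00969% higher and 0.0194% lower); 0 members had an unadjusted p under 0.05, against 550 of all features. The smallest p-values belonged to RpL38, RpL27 and RpS2, with interaction terms (testis minus ovary, log2) of -2.19, -0.94 and -1.64. Without mutant ovary replicate 2, 0 of 84 members were called, against 0.057% of all features (0.0285% in each direction), and 42 members had an unadjusted p under 0.05, against 1332 of 10518 features; the lowest adjusted p was 0.110, that of RpL5 at 2.16 (SE 0.53), and the terms of RpL38 and RpS2 were 0.98 and 0.42.

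Genes that act with the ribosomal proteins were read from fixed lists beside them. Between mutant tissues 6 of 41 tested translation factors were called higher and 5 lower in testis, and between control tissues 12 of 40 were called higher and 7 lower. Over all features the shares were 38.2% higher and 19.3% lower between mutant tissues, and 49.3% and 26.5% between control tissues. The initiation factor genes eIF3d2 and eIF3g2, paralogs of eIF3 subunit genes, stood at 259 ± 86.4 and 73.5 ± 43.8 CPM in mutant testes (SD over 3 libraries). Their control testis values were 187 ± 49.4 and 55.6 ± 7.29 CPM, and the ovaries had 0 counts. eIF3f2 averaged 42.7 ± 16.5 CPM in mutant testes and also had 0 counts in ovaries. eIF4H1 was lower in testis in both, at 6.51 ± 5.46 CPM in mutant testes against 193 ± 251 CPM in mutant ovaries, and at 6.99 ± 3.66 CPM in control testes against 97.1 ± 57.8 CPM in control ovaries (n = 3 each). Without the high ovary library of each comparison the counts were 19 higher and 4 lower of 41 in mutants and 20 higher and 5 lower of 41 in controls, and the log2 fold changes of eIF4H1 were -3.38 and -3.44. Over all features the shares were then 52.7% higher and 22.1% lower in mutants, and 50.7% and 24.5% in controls.

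Among genes of ribosome assembly and RNA polymerase I, 2 were called higher and 15 lower in testis of 33 between mutant tissues, and 3 higher and 16 lower of 31 between control tissues, beside 38.2% higher and 19.3% lower, and 49.3% and 26.5%, over all features. Surf6, a nucleolar assembly factor, averaged 2.06 ± 0.79 CPM in mutant testes against 95.1 ± 80.1 CPM in mutant ovaries, and 5.13 ± 2.16 CPM in control testes against 93.7 ± 39.8 CPM in control ovaries (SD, n = 3 each). Nop60B, the pseudouridine synthase of snoRNPs, had log2 fold changes of -3.89 and -3.39 in the mutant and control comparison, and nop5 had -3.11 in controls. Without the high ovary library of each comparison the counts were 5 higher and 14 lower of 33 in mutants and 3 higher and 16 lower of 34 in controls. The shares over all features in these fits are those given with the translation factors. Surf6 then had log2 fold changes of -4.93 and -4.05, and Nop60B of -2.76 and -3.26. Rrp6, of the nuclear exosome, was higher in control testes at 148 ± 23.3 CPM against 22.1 ± 4.69 CPM in control ovaries.

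Among regulators of growth and of ribosomal protein genes, 1 of 16 was called higher and 7 lower in testis between mutant tissues, and 3 of 14 higher and 7 lower between control tissues. Over all features 38.2% were higher and 19.3% lower in mutants, and 49.3% and 26.5% in controls. Without the high ovary library of each comparison the counts were 5 higher and 6 lower in mutants and 4 higher and 7 lower in controls. All features then had 52.7% higher and 22.1% lower in mutants, and 50.7% and 24.5% in controls. Myc, which activates ribosome production genes in Drosophila, averaged 6.44 ± 1.44 CPM in mutant testes against 148 ± 153 CPM in mutant ovaries, and 5.37 ± 1.82 CPM in control testes against 130.3 ± 30.9 CPM in control ovaries (SD, n = 3 each), although 40.94% of its exon bases lie opposite another gene. larp, whose mammalian relative binds ribosomal protein mRNAs, had log2 fold changes of -3.86 and -3.58 in the mutant and control comparison, and of -3.76 and -3.43 without the high libraries. Those of Myc were then -3.67 and -4.73. Between genotypes, 0 genes of these 3 lists were called in either tissue.

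Mitochondrial ribosomal protein genes, which carry similar symbols and serve another ribosome, numbered 71. Between mutant tissues 3 were called higher and 12 lower of 60, and between control tissues 15 higher and 15 lower of 46. Over all features 38.2% were called higher and 19.3% lower in mutants, and 49.3% and 26.5% in controls. Leaving out mutant ovary replicate 2 gave 17 higher and 15 lower between mutant tissues, beside 52.7% and 22.1% of all features. With all libraries the medians were -0.20 and -0.36, against -1.96 and -1.18 for the cytoplasmic genes. Without mutant ovary replicate 2 the median between mutant tissues was 0.44, against 0.27 for the cytoplasmic genes. For this set the control comparison without control ovary replicate 1 is not given here. In testes mRpL27 was called higher in mutants, at 21.0 ± 1.38 CPM against 2.85 ± 1.12 CPM in controls (SD, n = 3 each; log2 fold change 2.86, SE 0.54, edgeR adjusted p = 0.00175), the only gene of the set that was called there.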

How the data were processed

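The authors deposited raw counts per gene, a file for each of the 12 libraries. FastQC, TopHat2 2.1.1, HTSeq 0.9.1, DESeq and the genome BDGP6 are named in the submitters' processing notes, without their settings. The 5 HTSeq summary lines of a file, with 95.8% to 98.2% of its records, stayed out of totals and tests. Symbols, exon lengths and positions came from Ensembl 115 (BDGP6.54), which holds 17252 of the 17558 features. Differences were fitted on all features with edgeR 4.0.16, using filterByExpr at a minimum of 10 counts, scaling by TMM and the robust quasi-likelihood test; a call needs a Benjamini-Hochberg adjusted p below 0.05. CPM values are relative to library totals. A pair's share needed 10 counts over the pair in a library. Confidence intervals and floors reflect counting error alone. On simulated data with 100 genes changed 2-fold and 100 changed 4-fold, the fit recovered 35 and 94 between testis genotypes (9768 genes) and 36 and 89 between ovary genotypes (4683 genes). Every simulated gene had the same dispersion of 0.05, and no simulated library stood apart. In the data, the median spread of a member was 152% in mutant and 92.3% in control ovaries. The recovered numbers therefore do not measure what the ovary fit can find. The members, gene lists and tests were chosen with earlier results of these data known.

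Named are all paralogs; called members, or the 8 largest changes in a direction where more were called, or the 3 smallest p-values where none was; the 3 highest and 3 lowest members per kilobase in control testes and ovaries; members with at least 50% of exon bases opposite another exon; and up to 4 called genes of each other list. Alternatives were DESeq2 size factors, library size alone, no filter, DESeq2 1.42.0, a replicate block, a term for the share of counts without an opposite exon, and leaving out libraries. Results of some genes that this rule names are not reported here.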

Additional observations from a re-analysis of the deposited data

How the results depend on the processing

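Among the alternative values of counts and summed shares, 96 stayed within 1.5 times or the replicate spread and 26 moved. Between genotypes, the members called in testis numbered 1 instead of 0 with the share of counts without an opposite exon as a term, and 0 to 1 when single libraries were left out. In ovary they numbered 1 instead of 0 without both high libraries, a choice made after seeing the data, and 0 to 1 when single libraries were left out. Between control tissues the members called higher numbered 7, but 11 with no filter and 6 to 19 when single libraries were left out. Those called lower numbered 38, and 28 to 59. Over all features, 4151 of 8427 were called higher, 5469 of 15019 with no filter, and 3799 to 4818 when single libraries were left out. Features called lower numbered 2230, and 2054 to 2396. Between mutant tissues the members called higher numbered 4, and 4 to 23 when single libraries were left out. Those called lower numbered 39, but 21 with library size alone, 24 with DESeq2, 22 with the replicate block, and 10 to 61 when single libraries were left out. Of all 9182 features, 3507 were called higher and 1775 lower. Library size alone, DESeq2 and the replicate block called 1509, 1716 and 1521 features lower. Fits with a single library left out called 3330 to 5172 features higher and 1273 to 2173 lower. Paralog shares called between tissues numbered 9, but 4 with a minimum of 30 counts, which left 6 pairs, 7 without both high libraries, and 8 to 10 when single libraries were left out. Genotype comparisons of shares without overlap numbered 1 to 5. In features without an opposite exon, the summed share was 1.12% in mutant testes, 1.02% in control testes and 3.90% in control ovaries, against 0.664%, 0.583% and 1.22% in all features. The cause was not tested.

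In ovary, the mutant over control log2 fold change reversed without mutant ovary replicate 2 in RpL30 (-0.18 to 2.63 over single libraries left out), RpL38 (-1.34 to 3.06) and RpS3A (-1.09 to 2.31). Without both high libraries it was -0.51 in RpL38 and -0.68 in RpS3A, and with the share term it was -0.0058 in RpS3A. The interaction reversed to 0.98 in RpL38 and 0.42 in RpS2 without mutant ovary replicate 2. The share difference of RpLP0-like changed sign in 6 of the fits with a single library left out, over -3.57 to 4.59 points. The cause was not tested.

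Replicate numbers did not pair the libraries: same-numbered libraries correlated at -0.19, 0.01 and -0.34 between testis genotypes and at -0.56, -0.45 and 0.30 between ovary genotypes. With the replicate block, 0 members were called between genotypes and in the interaction, with medians of 0.15 in testis and 0.11 in ovary. That fit called 9 members higher and 29 lower between control tissues, and 5 and 22 between mutant tissues. Of all features it called 3916 higher and 1988 lower of 8427 between control tissues. Between mutant tissues it called 3561 higher and 1521 lower of 9182. The median of all features between control tissues was 1.04 with TMM, 1.18 with DESeq2 size factors and 1.17 with library size alone, and between mutant tissues it was 0.83, 1.06 and 0.80. Low ovary counts, 4 to 8 members at 0 per library, limit what can be seen there.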
